A study of Mus musculus with 12 samples.

Results

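The creatine kinase family of the mouse was examined through the transcripts of its 4 genes, Ckb, Ckm, Ckmt1 and Ckmt2, in colon after local loss of enteric neurons. The genes were found by symbol among the 27179 genes of the deposited expression table, and the family was chosen by the TPM values of Ckmt2, which were higher after ablation. The ablated-to-control values of all 4 genes are therefore given as a description with no test. Their intervals are those of the mean log2 difference and are not corrected for that choice. All 4 were present, and all 4 passed the minimum on low values, as did 16164 genes in total. The study sequenced polyadenylated RNA of 12 colon libraries, 5 control and 7 ablated. Control mice carried the R26-iDTR allele, a diphtheria toxin receptor that only Cre switches on, without Cre. Ablated mice carried BAF53b-Cre::R26-iDTR, in which Cre is driven from a gene of neuronal chromatin remodelling (BAF53b), so that the receptor is made in neurons. Every mouse of both groups, littermates per the labels, underwent laparotomy and received 4 µL of toxin at 0.33 ng per µL with 10% India ink in the outer muscle of the colon, and the inked site was taken in full thickness. The time after the toxin, the age of the mice, and whether each library came from a separate mouse are not given in the sources used here, so p-values below measure the spread between these libraries, which may be partly technical.

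Creatine kinases move a phosphate group between ATP and creatine, which gives cells with bursts of energy demand a reserve of phosphocreatine and a shuttle from mitochondria to sites of use. Ckb (brain type) and Ckm (muscle type) encode the cytosolic subunits, which form dimers. Ckmt1 (ubiquitous type) and Ckmt2 (sarcomeric type) encode the mitochondrial subunits, which sit between the mitochondrial membranes next to the ATP exporter. In gut, Ckb is known from smooth muscle and epithelium and Ckmt1 from epithelium, whereas Ckm and Ckmt2 are best known from skeletal and heart muscle.

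The 4 genes lie on separate chromosomes of mm10 (GRCm38), with exons as annotated by GENCODE. Ckb spans chr12:111669361-111672338 on the minus strand with 8 exons, and Ckm spans chr7:19404776-19422841 on the plus strand with 8 exons. Ckmt1 spans chr2:121357714-121363737 on the plus strand with 10 exons, and Ckmt2 spans chr13:91853387-91876885 on the minus strand with 10 exons. The 250 bases before each RefSeq start (GRCm38.p6) are printed 5′ to 3′ in the direction of the gene, because the 2 mitochondrial genes varied together between libraries and because the windows show how unlike the 4 starts are. Ckmt1 has 2 starts in RefSeq. The RefSeq starts differ from the GENCODE spans for 2 genes. The Ckm window and the second Ckmt1 window lie inside the spans given above, and the first Ckmt1 window ends inside its span. Capitals mark matches, read on both strands, to 5 motifs. The TATA box was searched as TATAAA and, because variants of it are common, as TATATA. The E-box, a site of muscle and other helix-loop-helix factors, was searched as CAGCTG and in its palindromic variant CACGTG. The CCAAT box was searched as spelled, the site of estrogen-related receptors as AAGGTCA, and the site of the muscle factor MEF2 by its consensus.
Ckb, chr12:111672339-111672588, minus strand: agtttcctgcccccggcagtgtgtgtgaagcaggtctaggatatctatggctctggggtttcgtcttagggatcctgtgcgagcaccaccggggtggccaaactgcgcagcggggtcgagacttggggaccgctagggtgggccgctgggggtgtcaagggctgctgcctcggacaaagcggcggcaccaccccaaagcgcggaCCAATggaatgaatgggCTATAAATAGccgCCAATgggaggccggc
Ckm, chr7:19410844-19411093, plus strand: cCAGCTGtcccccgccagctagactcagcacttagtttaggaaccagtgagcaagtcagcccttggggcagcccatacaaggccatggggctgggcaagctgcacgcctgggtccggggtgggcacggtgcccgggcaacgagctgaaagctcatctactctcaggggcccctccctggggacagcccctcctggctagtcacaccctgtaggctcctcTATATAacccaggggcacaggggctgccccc
Ckmt1 first start, chr2:121357526-121357775, plus strand: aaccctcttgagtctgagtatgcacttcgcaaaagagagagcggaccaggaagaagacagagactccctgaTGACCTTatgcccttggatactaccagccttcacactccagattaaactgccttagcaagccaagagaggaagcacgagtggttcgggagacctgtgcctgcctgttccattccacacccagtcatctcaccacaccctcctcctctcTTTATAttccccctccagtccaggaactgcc
Ckmt1 second start, chr2:121358360-121358609, plus strand: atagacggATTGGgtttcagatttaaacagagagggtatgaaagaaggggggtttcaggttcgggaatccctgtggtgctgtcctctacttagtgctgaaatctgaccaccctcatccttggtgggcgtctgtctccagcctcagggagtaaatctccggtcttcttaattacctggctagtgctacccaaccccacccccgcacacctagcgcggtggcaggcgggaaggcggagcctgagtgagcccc
Ckmt2, chr13:91876886-91877135, minus strand: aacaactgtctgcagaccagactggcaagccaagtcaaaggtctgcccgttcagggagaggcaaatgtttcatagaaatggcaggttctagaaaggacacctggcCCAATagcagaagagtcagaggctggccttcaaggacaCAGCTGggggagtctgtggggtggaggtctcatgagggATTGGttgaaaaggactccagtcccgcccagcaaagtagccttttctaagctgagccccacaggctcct

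A TATA box began 28 bases before the Ckb start, 31 before the Ckm start and 31 before the first Ckmt1 start, and those letters were absent from the windows of the second Ckmt1 start and of Ckmt2. Of 27025 mouse promoter windows of the same length, 16.4% held one. The MEF2 match of Ckb, a motif found in 3.0% of windows, overlapped its TATA box at 29 bases. The Ckmt2 window held CCAAT at 145 and 69 bases and an E-box at 107, and the Ckb window held CCAAT at 46 and 16. CCAAT also lay 242 bases before the second Ckmt1 start. CCAAT was present in 34.5% and an E-box in 17.9% of all windows. An E-box also lay 249 bases before the Ckm start. AAGGTCA, in 4.1% of windows, was found 179 bases before the first Ckmt1 start. A GC box (GGGCGG, not in capitals above, in 32.9% of windows) was found 46 bases before the Ckmt2 start. These matches describe letters only and were not tied to any measurement of binding.

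The coding sequences measured 1143 bases in Ckb and Ckm, 1254 in Ckmt1 and 1257 in Ckmt2. Ckb and Ckm were identical at 76.5% of aligned bases and the mitochondrial pair, Ckmt1 and Ckmt2, at 71.6%, while each cytosolic gene matched each mitochondrial gene at 66.5% to 68.3%. The longest run of identical bases was 39 between Ckmt1 and Ckmt2 and 20 between Ckb and Ckm. Read length and the handling of reads with several matches are not given in the sources used here, and a transfer of reads between members was not tested. The annotated spans of Ckm and Ckmt1 overlap genes on the opposite strand (A930016O22Rik at a mean of 0.490 TPM and Strc at 1.05 TPM). Ckmt2 overlaps the antisense gene 1700119I11Rik, which has no entry in the table. The libraries were directional, but whether the counting used strand is not stated.

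Depth was 13.4 to 26.9 M reads per library, recovered from the deposited TPM (transcripts per 1e6, a share of the library scaled by gene length). Ckmt1 rested on 232985 reads in control and 364532 in ablated libraries, Ckb on 23431 and 28432, Ckm on 945 and 1690, and Ckmt2 on 447 and 1845. The count per library was lowest for Ckm, at 58 to 448 reads, and for Ckmt2, at 71 to 378. Library ablated 1 stood apart in its share of mitochondrially encoded reads, 18.7%. The remaining 11 libraries lay between 3.56% and 10.4%, and values without ablated 1 are given beside the member results. Markers of colon were present in every library, with Krt8 (epithelium) at a mean of 4338 TPM and Tagln (smooth muscle) at 2632 TPM in control. Of 9 enteric neuron markers, 8 fell in ablated libraries (limma, adjusted p under 0.05), where 1.01% of all genes tested passed on the lower side. Elavl3, which did not pass, had a log2 difference of -0.92 (limma, adjusted p = 0.0988). Voom called all 9 lower, among 216 of all genes tested that it called lower. The summed TPM of the 9 markers ran from 80.4 to 185 in control and from 18.6 to 36.2 in ablated.

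Ckmt1, the ubiquitous mitochondrial kinase, was by far the most abundant member on the TPM scale. Control libraries 1 to 5 held 2351, 2317, 2165, 2761 and 2659 TPM, and ablated libraries ran from 1770 through a median of 2418 to 3464 TPM. The groups overlapped, with ablated 4, 5 and 7 above every control and ablated 1 and 6 below every control. Means were 2450 ± 250 TPM (SD, n = 5) and 2682 ± 762 TPM (SD, n = 7), a ratio of 1.09. The log2 difference was 0.08 (95% interval -0.35 to 0.51), and it was 0.17 without ablated 1. In these bulk pieces, a change in the number of cells of a type and a change in RNA per cell cannot be told apart. Ckmt1 ranked 55th of 27179 genes by mean TPM in control and 34th in ablated.

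Ckb, the brain-type cytosolic kinase, was next. Control libraries held 306, 249, 321, 209.7 and 249.9 TPM, and ablated libraries ran from 146 through a median of 203 to 338 TPM. The groups overlapped: 4 of 7 ablated libraries lay below the lowest control, and ablated 6 lay above the highest. Means were 267 ± 45.8 TPM (SD, n = 5) in control and 224 ± 72.0 TPM (SD, n = 7) in ablated. The log2 difference was -0.29 (95% interval -0.74 to 0.15) and -0.27 without ablated 1.

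Ckm, the muscle-type cytosolic kinase, was present at a low level in every library. Control values were 9.01, 10.6, 13.6, 11.4 and 10.4 TPM, and ablated values ran from 5.29 through a median of 14.1 to 22.1 TPM. Of the 7 ablated libraries, 5 lay above the highest control, whereas ablated 7 lay within the control range and ablated 1 below it. Means were 11.01 ± 1.68 TPM (SD, n = 5) and 13.6 ± 5.16 TPM (SD, n = 7), a ratio of 1.24. The log2 difference was 0.20 (95% interval -0.37 to 0.78) and 0.40 without ablated 1.

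Ckmt2, the sarcomeric mitochondrial kinase, was the scarcest member in control colon and the one that chose the family. Control libraries held 6.003, 4.07, 5.33, 6.11 and 3.94 TPM. Ablated libraries 1 to 7 held 8.77, 13.1, 12.6, 20.6, 17.6, 10.8 and 17.9 TPM. The groups did not overlap, since the lowest ablated value was 1.44 times the highest control value. Means were 5.09 ± 1.03 TPM (SD, n = 5) and 14.5 ± 4.28 TPM (SD, n = 7), a ratio of 2.85. The log2 difference was 1.39 (95% interval 0.94 to 1.84) and 1.5 without ablated 1. Ckmt2 stood at rank 10891 by mean TPM in control and 7525 in ablated.

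The groups of 1 of the 4 members (Ckmt2) did not overlap, which the choice of the family fixed, and nothing is read from that count. The share of tested genes without overlap between the groups was 2.88% (1.33% with ablated higher and 1.55% with ablated lower). Log2 fold changes in the authors' deposited table were -0.28 for Ckb, 0.27 for Ckm, 0.09 for Ckmt1 and 1.47 for Ckmt2.

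**Figure D1:**
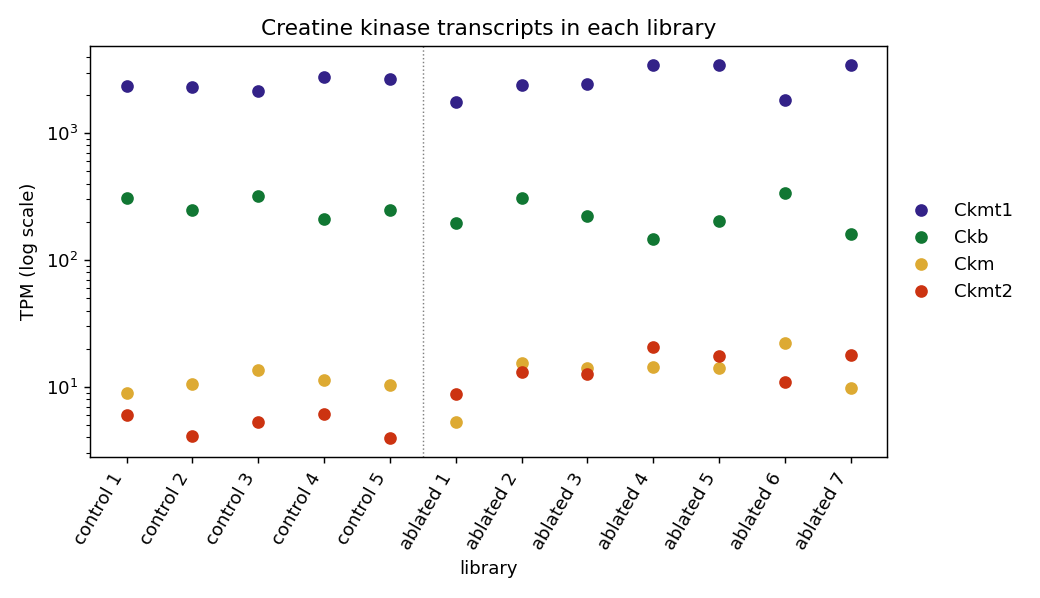
TPM of Ckmt1, Ckb, Ckm and Ckmt2 (log axis) in each of the 5 control and 7 ablated libraries. Ckmt1 and Ckb stay apart from the scarcer genes in every library, while Ckmt2 lies below Ckm in all control libraries and above it in ablated 1, 4, 5 and 7.

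**Figure D2:**
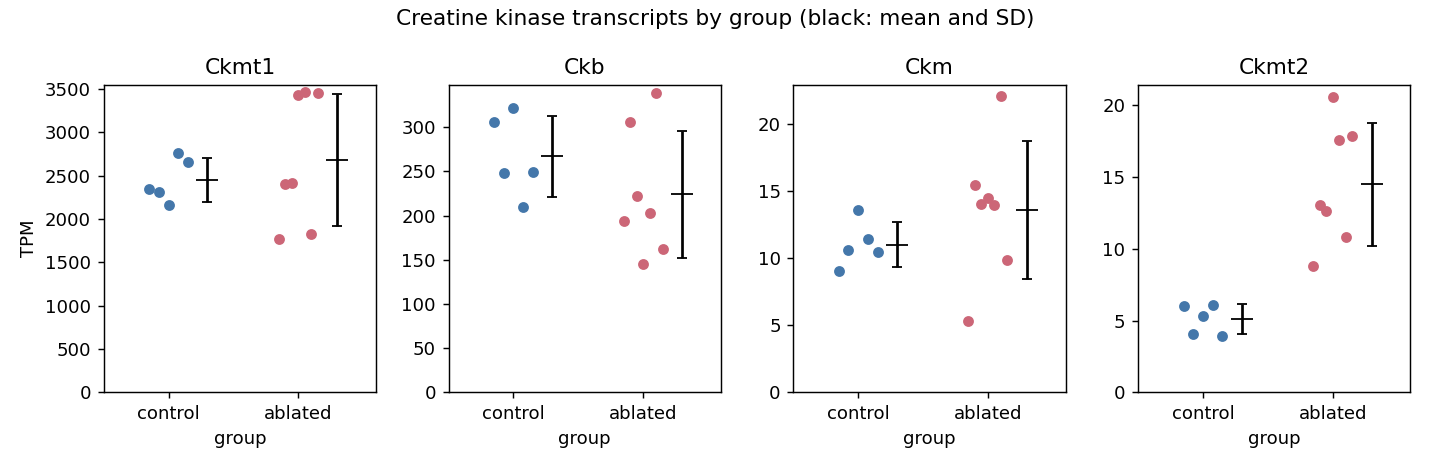
TPM of each gene by group (linear axes from 0), with 1 point per library and the mean and SD in black. Ckmt2 groups are apart, from 3.94 to 6.11 TPM in control and from 8.77 to 20.6 TPM in ablated libraries, and the groups of the other genes overlap.

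The make-up of the family was dominated by Ckmt1. Of the summed TPM of the 4 genes, Ckmt1 took 89.5 ± 2.37% in control (SD, n = 5) and 90.6 ± 4.32% in ablated (SD, n = 7), and never less than 83.1%. Ckb took 9.90 ± 2.30% and 8.38 ± 4.12%. The share of Ckm was 0.406 ± 0.0809% and 0.487 ± 0.255%, and that of Ckmt2 was 0.187 ± 0.0386% in control and 0.489 ± 0.0393% in ablated. The sum itself was 2734 ± 212 TPM in control and 2934 ± 721 TPM in ablated, groups that overlapped. Without ablated 1 the ablated means were 90.8% for Ckmt1, 8.14% for Ckb, 0.524% for Ckm, 0.497% for Ckmt2 and 3094 TPM for the sum.

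Levels kept the order Ckmt1, Ckb, Ckm, Ckmt2 in all 5 control libraries. The lowest Ckmt1 value of any library was 5.23-fold above the highest Ckb value, and the lowest Ckb value was 6.59-fold above the highest Ckm value, so these steps were larger than the spread between libraries. Ckm and Ckmt2 did not keep their order in ablated colon. The ratio of Ckmt2 to Ckm was 0.471 ± 0.127 in control, where it was above 1 in 0 of 5 libraries, and 1.20 ± 0.477 in ablated, where it was above 1 in 4 of 7 and averaged 1.12 without ablated 1. Ablated 6, which had the highest Ckm level, had the lowest of the ablated ratios at 0.491, inside the control range of 0.378 to 0.667.

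The mitochondrial pair had a ratio that did not overlap between groups and was narrow among ablated libraries. Ckmt1 exceeded Ckmt2 by 392-, 569-, 406-, 452- and 674-fold in control libraries 1 to 5. In the ablated libraries this ratio ran from 167 to 202, with a mean of 186 ± 13.8 (SD, n = 7) against 499 ± 121 in control (SD, n = 5). Without ablated 1 its mean was 183. The lowest control ratio was 1.94 times the highest ablated ratio. The levels of the pair did not run in parallel between groups: control 4 held 2761 TPM of Ckmt1 with 6.11 TPM of Ckmt2, and ablated 6 held 1825 TPM of Ckmt1 with 10.8 TPM of Ckmt2. The ratio contains Ckmt2, which chose the family, and is a description.

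**Figure D3:**
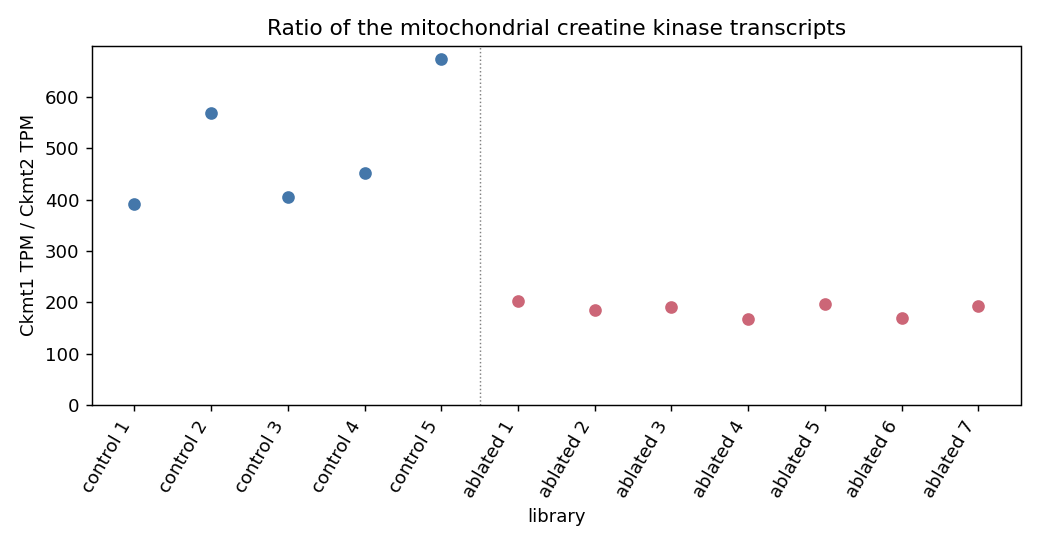
Ratio of Ckmt1 TPM to Ckmt2 TPM in each library (linear axis from 0). Control libraries lie between 392 and 674 and ablated libraries between 167 and 202.

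Spread between libraries was wider after ablation for each of the 4 genes as a coefficient of variation, and no test of this was made. It was 10.2% in control and 28.4% in ablated for Ckmt1, 17.1% and 32.1% for Ckb, 15.2% and 37.9% for Ckm, and 20.3% and 29.6% for Ckmt2. Without ablated 1 the ablated values were 25.0%, 33.8%, 26.6% and 24.6% in the same order. To see what varied together, each gene was centred on its group mean, which removes the difference that chose the family, and compared across the 12 libraries. Between members, 6 relations were computed after the data were seen. Ckmt1 and Ckmt2 varied together (Pearson r = 0.83, permutation p = 0.00536, adjusted 0.0322; Spearman rho = 0.80, permutation p = 0.0134, adjusted 0.0807). Their r was 0.78 without ablated 5 and 7, the libraries farthest from the median, and 0.97 within the 7 ablated libraries. Ckb and Ckmt1 had r = -0.66, which did not pass (adjusted permutation p = 0.179), and r for the other 4 pairs lay between -0.44 and 0.46. Without ablated 1, r was 0.75 for Ckmt1 and Ckmt2, -0.88 for Ckb and Ckmt1 and -0.71 for Ckm and Ckmt1, the last against 0.10 with all libraries.

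Each member was also compared, within groups, with 4 scores of cell type markers, 16 relations in all, where a score is the mean centred log2 level of a marker list. Of the 16, 2 passed by Pearson r after adjustment. Ckmt1 rose and fell with the epithelium score of 13 markers (r = 0.96, permutation p = 0.0002, adjusted 0.0032; rho = 0.90, permutation p = 0.00049, adjusted 0.00784). That r was 0.93 without ablated 1 and 5, 0.98 within the ablated group and 0.94 without ablated 1. Ckmt1 also went against the skeletal and cardiac muscle score (r = -0.77, permutation p = 0.00303, adjusted 0.0242), but rho was -0.66 with an adjusted permutation p of 0.138. The adjusted p of that r no longer passed in 8 of 14 alternatives, among them the removal of any 1 ablated library.

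With all 12 libraries, none of the other 14 relations passed, but several passed with 1 library left out. Ckb and the smooth muscle score had r = 0.78 (permutation p = 0.0139, adjusted 0.0555; rho = 0.73, adjusted 0.122), and r was 0.79 without ablated 1 and 6 and 0.76 within the ablated group. It passed without ablated 1 (r = 0.87, adjusted permutation p = 0.025), ablated 4 (0.89, adjusted 0.0238) or control 5 (0.78, adjusted 0.0409). Ckb and the epithelium score, at r = -0.57 (adjusted permutation p = 0.202), passed without ablated 1 (-0.82, adjusted 0.0291). Ckm and the smooth muscle score had r = 0.80 (permutation p = 0.00979, adjusted 0.0522; rho = 0.62, adjusted 0.138), which rested on ablated 1 and 6, since r was 0.39 without them. It passed without control 1 (0.86, adjusted permutation p = 0.0207), control 4 (0.86, adjusted 0.0319) or control 5 (0.80, adjusted 0.0409), and was 0.70 without ablated 1. Ckmt2 and the epithelium score had r = 0.70 (permutation p = 0.0268, adjusted 0.0715; rho = 0.71, adjusted 0.138), with 0.49 without ablated 1 and 5, 0.54 without ablated 1 and 0.95 within the ablated group. It passed without control 1 (0.80, adjusted permutation p = 0.0306) or control 5 (0.86, adjusted 0.0233). Ckmt1 and the smooth muscle score, at r = -0.25 (adjusted permutation p = 0.712), passed without ablated 1 (-0.84, adjusted 0.025). None of the 4 relations to the neuron score passed, with r of 0.39 for Ckb, 0.10 for Ckm, -0.37 for Ckmt1 and -0.51 for Ckmt2.

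The share of mitochondrially encoded reads moved with several of these quantities. Its r over the 12 centred libraries was -0.92 with Ckmt1, -0.79 with Ckmt2, 0.51 with Ckb and -0.32 with Ckm. It was -0.92 with the epithelium score, 0.85 with the skeletal and cardiac score and 0.09 with the smooth muscle score. The part of this share in the relations of Ckmt1 and Ckmt2 was not tested.

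**Figure D4:**
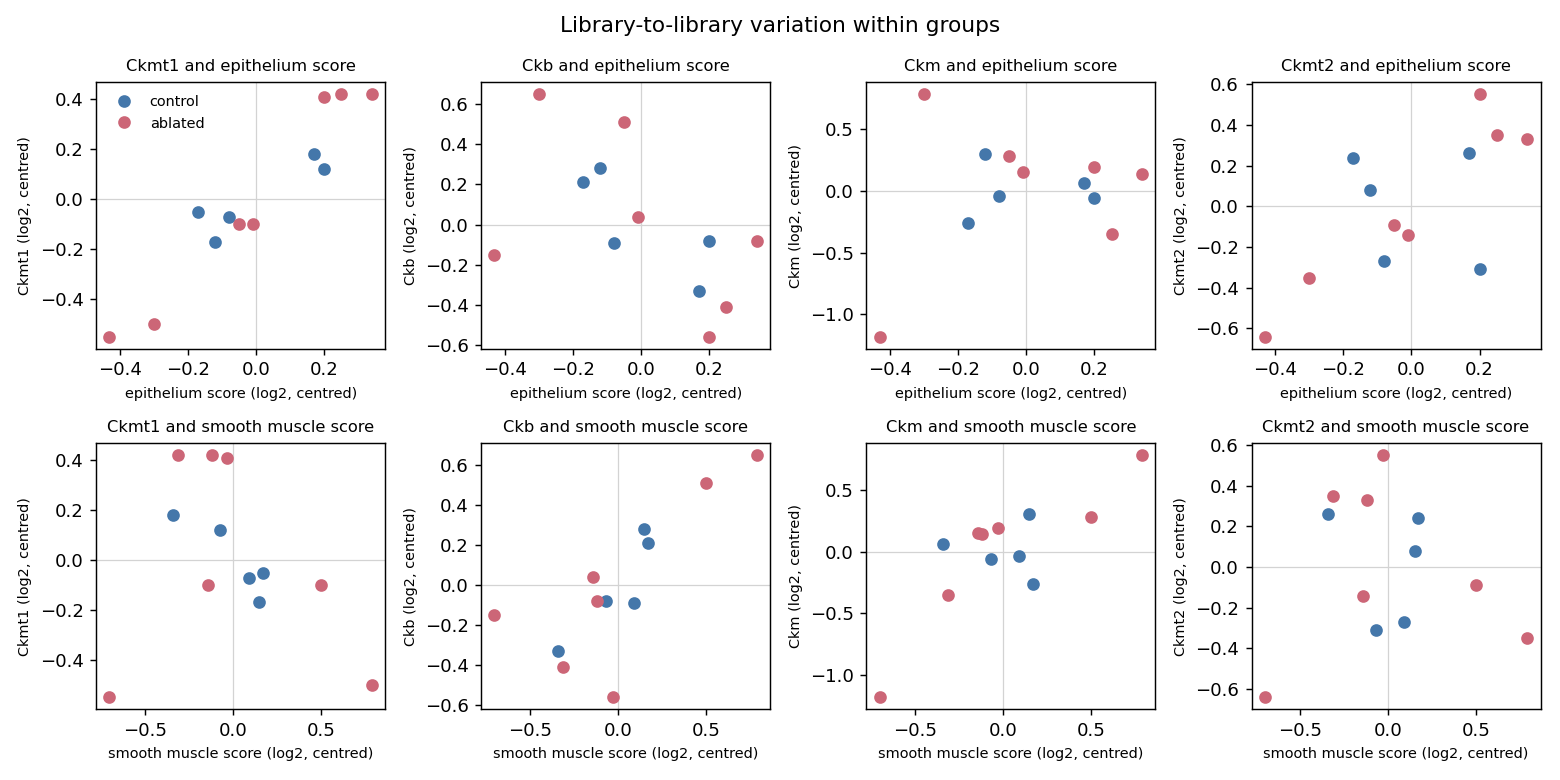
Group-centred log2 level of each gene (y axis) against the group-centred epithelium score (upper panels) and smooth muscle score (lower panels), 1 point per library. Ckmt1 follows the epithelium score at r = 0.96, and ablated 1 and 6 hold the ends of the smooth muscle score.

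The genes whose group-centred pattern was most like each member were taken from 14557 tested genes with a mean of at least 1 TPM, as a description over 12 libraries. For Ckmt1 these were Clrn3, which encodes a clarin membrane protein (r = 0.99), Atp5b, the beta subunit of ATP synthase (r = 0.98), and Serpinb1a, Ndufv1, a subunit of respiratory complex I, and Cyp2f2 (each r = 0.97). For Ckmt2 they were the microtubule gene Ckap5 (r = 0.97), Mrpl48, which encodes a mitochondrial ribosomal protein (r = 0.95), and Zfp148, Tmtc2 and the poly(A) polymerase gene Papola (each r = 0.94). For Ckb they were the RNA-binding protein gene Rbpms2 (r = 0.96), Tdp2, Dcbld2 and Tns1, which encodes the adhesion protein tensin 1 (each r = 0.94), and Gm10687 (r = 0.93). For Ckm they were Mtln, which encodes the mitochondrial microprotein mitoregulin, and the prion protein gene Prnp (each r = 0.95), Hand1 (r = 0.94), and B230217O12Rik and Mir1898 (each r = 0.93). Of these 20 genes, Ckap5, nearest to Ckmt2, had a log2 difference between groups of 0.24, against 1.39 for Ckmt2 itself.

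Because Ckm and Ckmt2 are best known from striated muscle, the levels of other striated muscle genes are given beside them. Of 24 skeletal and cardiac markers, 21 were tested and 0 passed in either direction by limma (2 at an unadjusted p under 0.05, 0 by voom), with 15 positive and 6 negative differences and a median log2 difference of 0.17, against 0.03 over all genes tested. Their summed TPM ran from 218 to 289.5 in control and from 289 to 377 in ablated, so the 2 ranges met. Most of this sum came from Tnni1, a troponin I gene, at 149 ± 14.0 TPM in control and 176 ± 55.8 TPM in ablated, and from Tnnt2, a troponin T gene, at 44.3 ± 17.1 and 39.5 ± 10.3 TPM. The myosin heavy chains of striated muscle were low. In control and ablated, Myh1 was at 0.177 and 0.176 TPM, Myh7 at 0.106 and 0.133 TPM, Myh4 at 0.433 and 0.840 TPM, Myh6 at 1.17 and 0.996 TPM and Myh2 at 1.32 and 1.99 TPM. No marker of the list was at 0 in every library. Chosen after their values were seen, Acta1, the skeletal actin gene, was at 7.03 ± 4.17 and 16.2 ± 6.20 TPM (limma, adjusted p = 0.158) and Tnnt3, a fast troponin T gene, at 6.42 ± 3.43 and 27.6 ± 27.1 TPM (limma, adjusted p = 0.156). Acta1 lay above the highest control in 5 of 7 ablated libraries and Tnnt3 in 4 of 7. Without ablated 6, which held 85.9 TPM of Tnnt3, the ablated mean of Tnnt3 was 17.9 ± 9.27 TPM (SD, n = 6). In limma with the epithelium score as a covariate, Tnnt3 (adjusted p = 0.0220), Tnni2 (0.0404) and Tnni3 (0.0435) rose, and with the mitochondrial share Tnnt3 rose (adjusted p = 0.0360). Those 2 fits called 648 and 467 of all 16164 genes tested higher, against 68 in the reported fit. There, log2 differences were 0.95 for Tnni2 (limma, adjusted p = 0.565) and 0.02 for Tnni3 (limma, adjusted p = 0.997). The part of striated muscle in the Ckmt2 level was not tested, and within groups the r of Ckmt2 with this score was -0.68 (permutation p = 0.0227, adjusted 0.0715; rho = -0.64, adjusted 0.138). It was -0.43 without ablated 1, and it passed without control 1 (-0.78, adjusted permutation p = 0.0207) or control 5 (-0.74, adjusted 0.0409).

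The summed TPM of the other marker lists is given for the same reason. It ran from 6813 to 10640 in control and 7068 to 23310 in ablated for 12 smooth muscle markers, and from 13190 to 16750 and 13290 to 22220 for 13 epithelium markers. For 5 glia markers it ran from 12.2 to 17.8 in control and 8.67 to 11.5 in ablated, ranges that did not overlap. Leukocyte sums ran from 494.5 to 762.4 and 87.5 to 501.4, and adipocyte sums from 56.6 to 185.4 and 82.7 to 151.7. Fibroblast and endothelium sums ran from 208.1 to 307.9 and 162.4 to 393.8. None of the smooth muscle, epithelium, glia, adipocyte, leukocyte, or fibroblast and endothelium markers tested passed in the reported limma fit. Among the alternatives, Car1 (epithelium) rose without ablated 1 (limma, adjusted p = 0.0164) and S100b (glia) fell without it (limma, adjusted p = 0.00684). With all libraries and no covariate, Fabp7 (glia) fell with no minimum or median-of-ratios scaling (limma, adjusted p = 0.0424 and 0.0469). Car1 rose with quantile normalization (limma, adjusted p = 0.0408) and with the library number as a replicate block (limma, adjusted p = 0.0112). Without ablated 5, Fabp7 fell (limma, adjusted p = 0.00927). Of the leukocyte markers, Cd79a fell without ablated 3 and Jchain without ablated 5 (limma, adjusted p = 0.0439 and 0.0454). With the epithelium score as a covariate, Col1a1 (fibroblast) and Krt18 (epithelium) rose (limma, adjusted p = 0.0127 and 0.0299). In that fit Jchain, Fabp7 and Krt20 (epithelium) fell (limma, adjusted p = 0.0185, 0.0175 and 0.02685). With the mitochondrial share, Krt18, Muc2 (epithelium) and Car1 rose (limma, adjusted p = 0.0235, 0.0407 and 0.0393). Jchain, Fabp7 and S100b fell there (limma, adjusted p = 0.0265, 0.02155 and 0.00653). Those 2 fits called 1416 and 1088 of all genes tested, against 231 in the reported fit. In the reported limma fit, the counts at an unadjusted p under 0.05 were 0 of 12 for smooth muscle, 3 of 13 for epithelium and 3 of 5 for glia. They were 0 of 4 for adipocytes, 2 of 6 for leukocytes and 0 of 5 for fibroblasts and endothelium. The share of all genes tested at that unadjusted threshold is not given here. Nothing is therefore read from these counts or from the unadjusted counts of the other lists. Voom called 2 glia markers, both lower, and 0 of the others. Over all genes tested, voom called 264, with 48 higher and 216 lower. Median log2 differences were 0.13 for smooth muscle, 0.22 for epithelium, -0.77 for glia, 0.08 for adipocytes, -0.27 for leukocytes and 0.20 for fibroblasts and endothelium. Their part in the member values was not tested. With the epithelium score as a covariate, log2 differences were -0.08 for Ckb, 0.09 for Ckm, -0.24 for Ckmt1 and 1.13 for Ckmt2. With the smooth muscle score they were -0.42, 0.04, 0.12 and 1.40 in the same order.

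Creatine itself reaches the kinases by synthesis and by uptake, and 1 of these 4 genes fell. Slc16a12, which encodes the monocarboxylate-family creatine transporter MCT12, held 6.83, 6.25, 5.46, 5.14 and 6.27 TPM in control and ran from 1.87 through a median of 3.11 to 4.71 TPM in ablated. All 7 ablated libraries lay below the lowest control. Means were 5.99 ± 0.680 TPM (SD, n = 5) and 3.03 ± 0.878 TPM (SD, n = 7), 1.98-fold lower, with a log2 difference of -0.91 (95% interval -1.28 to -0.53; limma, adjusted p = 0.0169). Of all genes tested, 1.43% passed in limma, 1.01% on the lower side and 0.421% on the higher. The call was lost without control 1 (limma, adjusted p = 0.0555), control 2 (0.0640) or control 5 (0.0562), and the adjusted p over all alternatives ran from 0.00269 to 0.261. Summed neuron markers were lower in the same libraries, and their part in the Slc16a12 level was not tested.

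Slc6a8, the main creatine transporter of the cell surface, was the most abundant of the 4 at 213 ± 22.9 TPM in control and 269 ± 47.7 TPM in ablated, with 6 of 7 ablated libraries above the highest control. Its log2 difference of 0.32 (95% interval 0.03 to 0.61) did not pass (limma, adjusted p = 0.347). Gatm, which makes guanidinoacetate in the first step of creatine synthesis, was at 21.0 ± 2.44 and 17.0 ± 6.68 TPM, with a log2 difference of -0.40 (95% interval -0.99 to 0.18; limma, adjusted p = 0.640). Gatm passed with the epithelium score (adjusted p = 0.0328) or the mitochondrial share (adjusted p = 0.0289) as a covariate in limma. Those 2 fits called 768 and 621 of all genes tested lower, against 163 in the reported fit. Gamt, which methylates guanidinoacetate to creatine, was at 5.70 ± 1.03 and 4.12 ± 1.43 TPM, with a log2 difference of -0.48 (95% interval -0.97 to 0.02; limma, adjusted p = 0.445). The median log2 difference of the 4 genes was -0.44, with 1 positive and 3 negative.

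Other routes of phosphate transfer and the partners of the mitochondrial kinases showed 0 calls in limma without a covariate and 0 by voom. With the epithelium score as a covariate, 4 of these genes fell in limma: Nme1, a nucleoside diphosphate kinase (log2 difference -0.72, adjusted p = 0.0274), the outer-membrane channel Vdac3 (-0.38, adjusted p = 0.0299), and the oxidative regulators Esrrg (-0.67, adjusted p = 0.0356) and Ppargc1a (-0.53, adjusted p = 0.0390). That fit called 1416 of all 16164 genes tested, 768 of them lower, against 231 and 163 in the reported fit without a covariate, to which the counts below belong. Of 15 adenylate and nucleoside diphosphate kinase genes, 12 were tested and 0 passed (0 at an unadjusted p under 0.05), with 4 positive and 8 negative differences and a median of -0.05. Nme2, a nucleoside diphosphate kinase, was at 497 and 484 TPM in control and ablated. Of 7 genes of mitochondrial nucleotide and phosphate exchange, 6 were tested and 0 passed (0 at an unadjusted p under 0.05), with a median of -0.04. Slc25a5, an ADP/ATP carrier that works next to mitochondrial creatine kinase, was at 1451 ± 226 and 1638 ± 522 TPM, and the phosphate carrier Slc25a3 at 520.5 ± 82.9 and 659 ± 273 TPM. Of 10 regulators of oxidative metabolism, 9 were tested and 0 passed (1 at an unadjusted p under 0.05), with a median of -0.06. Esrra, an estrogen-related receptor, was at 148 and 149 TPM and Tfam, which maintains mitochondrial DNA, at 21.3 and 19.0 TPM.

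**Figure D5:**
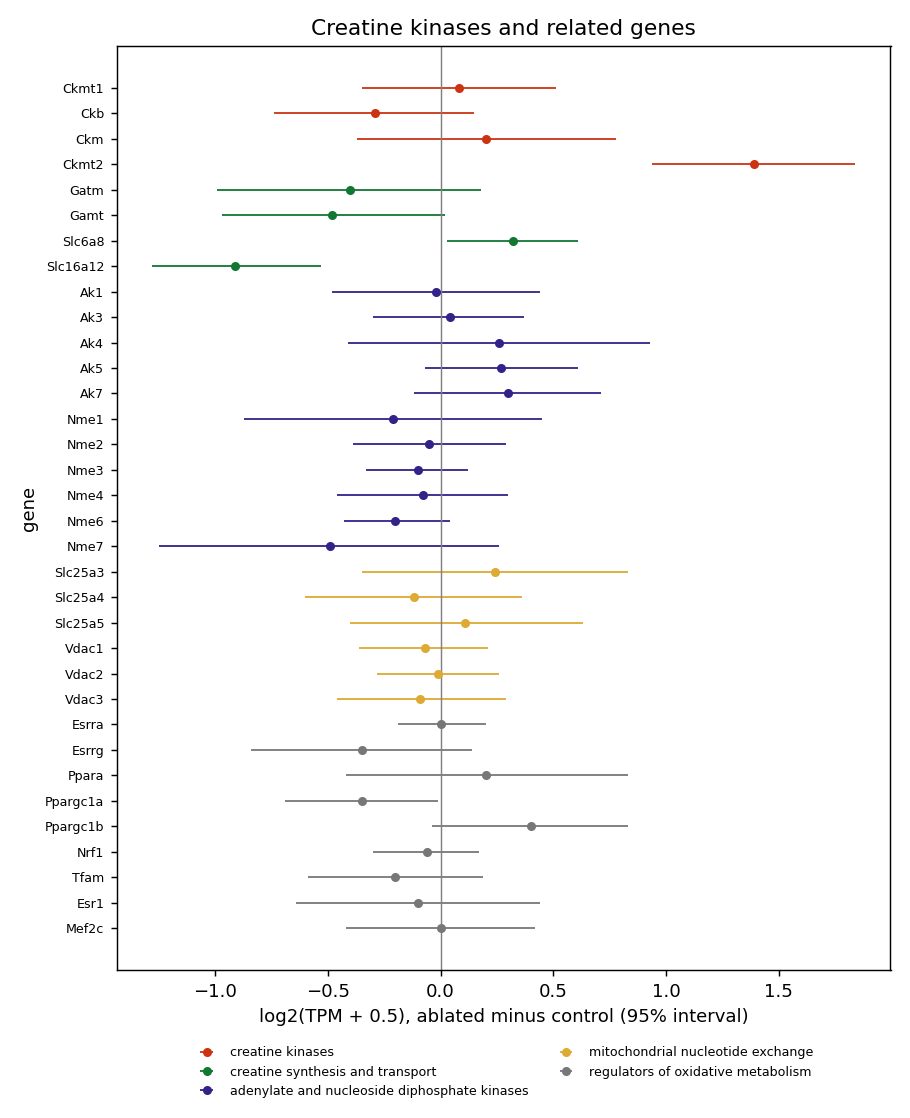
Log2 difference (ablated minus control, on the log2(TPM + 0.5) scale) with its 95% interval for the 4 creatine kinases and tested genes of 4 related lists (1 tested gene is not shown). Ckmt2 lies at 1.39 and Slc16a12 at -0.91, and most of the other intervals cross 0. The interval of Ckmt2, which chose the family, is not corrected for that choice and is a description.

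Genes next to the members on the chromosome were compared, as 2 tested neighbours per member. Beside Ckmt2 lie Zcchc9 and Rasgrf2, whose log2 differences were -0.10 (limma, adjusted p = 0.941) and 0.16 (limma, adjusted p = 0.734). For the neighbours of the other members, log2 differences were 0.12 (Mark3) and 0.10 (Trmt61a) beside Ckb, 0.47 (Klc3) and 0.14 (Mark4) beside Ckm, and 0.23 (Ppip5k1) and 0.01 (Catsper2) beside Ckmt1. The adjusted p of these 6 in limma ran from 0.376 to 0.997.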

How the data were processed

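The data are 12 RNA-seq libraries from mouse colon (5 control, 7 ablated). Per the labels' protocols, libraries were polyA-selected and directional. Per the submitters' processing notes, bcl2fastq 2.17, HISAT and featureCounts were used with mm10; the other versions, and any use of strand, are not given in the sources used here. The authors deposited TPM per gene, and the 12 per-sample files are identical to the series table. The authors' deposited comparison table holds log2 fold changes, an F score, p-values and false discovery rates, of which only the log2 fold changes of the 4 members are printed.

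The members and lists were chosen with earlier results of these data known. Because the unit is TPM, no count test was the main test. Whole reads were recovered for 22840 of 22842 genes above 0 (99.99% of values within 0.05 read), and no column was left unused. The 16164 genes that reached 0.5 TPM in 5 or more libraries were fitted on log2(TPM + 0.5), which understates changes of low genes. The fit was limma's (version 3.58.1, R 4.3.3) with lmFit and a trended eBayes. P-values are two-sided, with Benjamini-Hochberg adjustment over every gene in the fit and a threshold of 0.05. Intervals come from the same fit. Relations used 100000 two-sided permutations within groups (seed 11, smallest possible p 1e-05), adjusted over 16 relations, or over 6 between members. Python 3.11.15, numpy 2.4.6, pandas 2.3.3, SciPy 1.17.1, Biopython 1.88 and matplotlib 3.10.9 were used.

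Named genes are the 4 members, the 4 genes of creatine synthesis and transport, for each other list its called members (up to 4) or the 2 of highest mean TPM, the 5 genes most like each member, and the nearest tested neighbours; some named neuron, glia and other markers are given as counts or sums, and 1 gene that the rule names is not reported here. Positions came from GENCODE M21 on GRCm38 and promoters from RefSeq, for all 4 members. Alternatives changed the added constant, the minimum, the scaling, covariates, a library-number block and the libraries, 1 left out at a time. Voom on recovered reads, the mitochondrial share as a covariate, the 10 libraries of the block without it, member relations, shares and ratios without ablated 1, and Tnnt3 without ablated 6 were chosen after seeing the data.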

Additional observations from a re-analysis of the deposited data

Results flagged for a closer look

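Among 24 groups of library values checked for a single value far from the rest, where chance marks about 1 in 20, 2 stood out, both as shares of the summed creatine kinase TPM among the 7 ablated libraries. In ablated 6 the share of Ckm was 1.005%, and the next highest was 0.565%, a gap of 0.6 of the whole range where 0.568 is the limit. In ablated 4 the share of Ckmt2 was 0.570%, and the next highest was 0.494%, also a gap of 0.6 of the range. Ablated 6 also had the highest Ckm level (22.1 TPM) and the next to lowest Ckmt1 level (1825 TPM), and ablated 4 the highest Ckmt2 level (20.6 TPM).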

How the results depend on the processing

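Over 24 alternatives the log2 difference of Ckb lay between -0.42 and -0.08, that of Ckm between 0.04 and 0.40 and that of Ckmt2 between 1.13 and 1.5. That of Ckmt1 changed sign with the epithelium score (-0.24) or the mitochondrial share (-0.03) as a covariate, and the cause was not tested. Genes passing over the whole table numbered 231 in the reported fit (68 higher, 163 lower), 349 with no minimum, 1416 with the epithelium covariate (648 higher), 1088 with the mitochondrial covariate (467 higher), and 128 to 328 with 1 library left out, of which 128 without control 2 and 137 without control 3. Calls in the 4 pathway lists numbered 1 in the reported fit, 6 with the epithelium covariate, 2 with the mitochondrial covariate, and 0 to 1 with 1 library left out, with 0 without control 1, 2 or 5. With the library number as a replicate block, over the 10 libraries that share numbers, 89 genes and 0 of the pathway lists passed (114 and 0 in the same libraries without the block). Under the block the log2 differences were -0.34 for Ckb, 0.12 for Ckm, 0.10 for Ckmt1 and 1.39 for Ckmt2, and the adjusted p of Slc16a12 was 0.261 (0.0889 without the block in those libraries). Same-numbered libraries had r of 0.009, 0.359, -0.269, 0.203 and 0.162 for their deviations, and of the control libraries only control 2 correlated best with its own number, so the numbers are not taken as pairs.

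The relation of Ckmt1 to the epithelium score passed in all 14 of its alternatives. That of Ckmt1 to the skeletal and cardiac score was -0.66 under median-of-ratios scaling (adjusted permutation p = 0.142) and -0.83 to -0.74 with 1 library left out. With 1 library left out, r with the smooth muscle score ran from 0.64 to 0.89 for Ckb, 0.70 to 0.86 for Ckm, -0.84 to 0.12 for Ckmt1 and -0.58 to 0.25 for Ckmt2. With the skeletal and cardiac score it ran from -0.80 to 0.40 for Ckm and -0.78 to -0.43 for Ckmt2, and with the epithelium score from -0.82 to -0.44 for Ckb, -0.57 to 0.58 for Ckm and 0.54 to 0.86 for Ckmt2. Signs turned for Ckm with the skeletal and cardiac score (0.40) and the epithelium score (-0.57) without ablated 1, for Ckmt1 with the smooth muscle score without ablated 6 (0.12), and for Ckmt2 with it without control 4 (0.04), ablated 6 (0.25) or ablated 7 (0.05). The causes were not tested. Depth limits Ckm and Ckmt2 most, at 58 and 71 reads in their shallowest libraries.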
